A study of Arabidopsis thaliana with 4 samples.

Results

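The RNA of atprmt5 seedlings, which carry a mutation in the protein arginine methyltransferase gene PRMT5, was compared with that of wild-type Arabidopsis thaliana seedlings, locus by locus. Of 24288 loci with a value, the 18560 whose mean over the atprmt5 and wild-type libraries was at least 1 RPKM (read counts divided by the transcript's length and by the size of the library) were compared, and 5728 lay below that minimum. Both genotypes were whole seedlings of the Columbia ecotype, 12 days old, kept at 23 °C with a daily 16 h light and 8 h dark period on plates of Murashige and Skoog medium that held 3% sucrose. The labels name neither the allele of atprmt5 nor the hour of harvest. Lines m90 and s215 came from the same study of suppressors of the mutant, and the labels used here give neither their altered gene nor their PRMT5 genotype, so their levels are only set beside those of the pair. Each genotype had 1 library. There is therefore no replicate check and no test, and every difference below is one between 2 libraries.

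PRMT5 is a conserved enzyme that adds methyl groups to arginines, symmetrically, with Sm proteins of the spliceosome and a histone H4 arginine among its known substrates, and Arabidopsis plants without it are known for late flowering, altered splicing and a lengthened circadian period. Several gene systems that come up below are well described in seedlings. Anthocyanins, the red and purple pigments, are made from phenylalanine through the flavonoid pathway, whose late enzymes are switched on by a complex of MYB, bHLH and WD40 proteins. Touch, wounding, cold and elicitors switch on a set of transient early genes for WRKY, ERF and zinc finger factors, calmodulin-like proteins and JAZ repressors.

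The differences are given as log2((RPKM + 1)/(RPKM + 1)), atprmt5 over wild type, a scale that understates differences of low loci. A locus counts as 2-fold apart on that scale, so a low locus can have a plain ratio above 2 and not be counted. Folds are plain ratios of RPKM. Gene lists and families were chosen with earlier results of these data known, so their counts and shares are description only. Where a pair of RPKM values has no genotype beside it, wild type comes first. The range in brackets after a fold is its 95% interval (exact, Clopper-Pearson) from reads recovered from the RPKM steps. It covers counting error only, since reads that carry no molecular identifiers cannot be taken as separate molecules, and it leaves out variation between plants. Reads were recovered with the shortest length that made them whole, so some intervals are wider than the true counts would give. In RNA from whole seedlings, fewer cells of a type and less RNA per cell cannot be told apart.

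PRMT5 itself stood at 5.94 RPKM in wild type against 1.25 in atprmt5, 4.76-fold (3.48 to 6.54) lower. It was at 0.974 RPKM in m90 and 1.7 RPKM in s215. The library totals recovered from the values were 17350612 reads in wild type and 17901204 in atprmt5, so that both had near-equal depth. The s215 library stood apart in having 2893 loci at 0, where the wild-type library had 1882, atprmt5 1736 and m90 1884. Leaf markers were high in both libraries: RBCS1A, the small Rubisco subunit, was at 2929 RPKM in wild type against 3072 in atprmt5, and LHCB1.1, a chlorophyll binding protein, at 5023 and 6283 RPKM. The root glucosidase PYK10 was at 1553 RPKM in wild type against 1484 in atprmt5. The flower markers AP3, AG and AP1 were at 0 in wild type and at most 0.162 RPKM in atprmt5, while another flower marker, PI, was at 1.99 and 1.05 RPKM. Among 9 tested tissue markers, 1, the root hair expansin EXPA7, was at least 2-fold apart.

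At least 2-fold higher in atprmt5 were 340 loci, 1.83% of those compared, and at least 2-fold lower were 635 loci, 3.42%. The other 17585 loci lay in between, and 82.4% of all loci compared were within 1.5-fold. The median log2 ratio over all loci was -0.0045. At least 4-fold higher were 27 loci and at least 4-fold lower 86. The counting interval lay wholly above 1 for 328 of the 340 and wholly below 1 for 619 of the 635. In the levels that the 2-fold rule itself used, the loci lower in atprmt5 had a median of 14.4 RPKM in wild type against 4.26 in atprmt5, and the loci higher in atprmt5 had a median of 3.14 RPKM in wild type against 9.23 in atprmt5. A locus passes the minimum of 1 RPKM also through the one library where it is high. The 2-fold line falls in a continuum. Just inside it on the higher side were the phosphate starvation transcript AT5G03545 at a log2 ratio of 1.0006 and the gibberellin oxidase gene GA20OX1 at 1.003, and just outside it were WRKY60 and the transporter gene ABCI17, each at 0.998. On the lower side AT5G52420 at -1.0006 and AT4G00560 at -1.003 were just inside, and SKIP3 at -0.9999 and AT1G78070 at -0.9996 just outside.

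**Figure D1:**
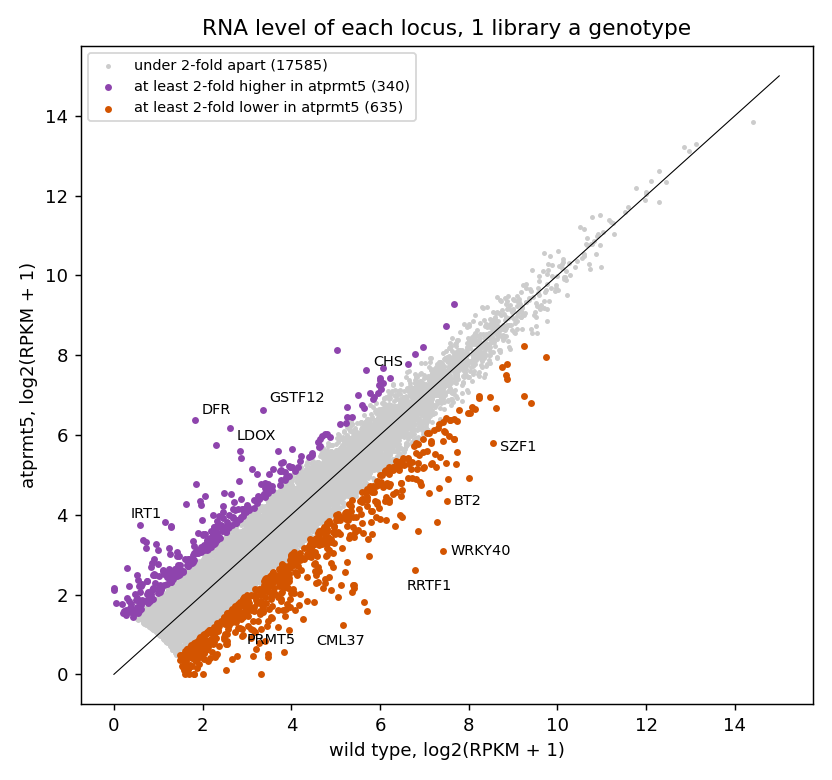
Each point is 1 of 18560 loci, with its level in wild type on the x axis and in atprmt5 on the y axis, both as log2(RPKM + 1), and the line marks equal levels. The 340 loci at least 2-fold higher in atprmt5 (purple) include DFR, LDOX and GSTF12 far above the line, and the 635 at least 2-fold lower (orange) include WRKY40, RRTF1 and CML37 far below it.

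The highest ratio of all loci belonged to a gene of anthocyanin synthesis. DFR, which encodes dihydroflavonol reductase, the first enzyme specific to anthocyanins and tannins, was at 2.54 RPKM in wild type against 82.3 in atprmt5, 32.5-fold (25 to 42.5) higher. LDOX, the anthocyanidin synthase that acts next, was at 5.14 RPKM in wild type against 70.8 in atprmt5, 13.8-fold (11.4 to 16.9) higher. The 250 bases that precede these genes are shown because the pair head the list and are neighbours in the pathway. They come from the TAIR10.1 genome of RefSeq, on the minus strand, at chr5:17166033-17166282 for DFR and chr4:12006210-12006459 for LDOX, and are written 5′ to 3′ with the gene start following the last base. Capitals mark matches to the motifs searched on both strands: the W-box TTGAC, which also appears as GTCAA, the G-box CACGTG and site II, TGGGCC.
DFR: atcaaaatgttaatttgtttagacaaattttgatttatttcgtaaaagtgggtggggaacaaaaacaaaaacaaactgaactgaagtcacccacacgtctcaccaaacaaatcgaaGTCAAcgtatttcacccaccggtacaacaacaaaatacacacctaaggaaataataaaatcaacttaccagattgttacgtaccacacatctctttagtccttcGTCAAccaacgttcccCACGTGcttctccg
LDOX: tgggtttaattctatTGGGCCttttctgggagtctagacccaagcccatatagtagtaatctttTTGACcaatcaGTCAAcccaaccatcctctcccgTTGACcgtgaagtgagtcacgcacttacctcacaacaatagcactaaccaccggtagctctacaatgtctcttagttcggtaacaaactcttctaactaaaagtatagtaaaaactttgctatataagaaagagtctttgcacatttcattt
The DFR stretch held a G-box that began 14 bases before the start and W-boxes at 134 and 30 bases before it. The LDOX stretch held W-boxes at 186, 175 and 152 bases before the start and a site II at 235, and no G-box letters. A match describes these letters and is not a binding site.

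Of 9 loci in the list of late anthocyanin enzymes and transport, 6 were higher in atprmt5 by at least 2-fold and none was lower. Over all loci, 1.83% were higher and 3.42% lower. The list had a median log2 ratio of 2.61 against -0.0045 over all loci. GSTF12, the glutathione transferase needed to carry anthocyanins into the vacuole, was at 9.21 RPKM in wild type against 98.5 in atprmt5, 10.7-fold (8.9 to 13) higher. UGT79B1, which adds xylose to the anthocyanin's glucose, was at 0.503 RPKM in wild type against 12.4 in atprmt5, 24.6-fold (14.2 to 46.7) higher. The malonyl transferase gene 5MAT was at 0.64 RPKM and 9.0 RPKM, 14.1-fold (8.31 to 25.5) higher in atprmt5. AT4G14090, a glycosyltransferase locus annotated for anthocyanidin 5-O-glucosylation, was at 1.44 RPKM in wild type against 12 in atprmt5, 8.35-fold (4.48 to 18.6) higher. The other 3 members were within 2-fold: the flavonoid glucosyltransferase gene UGT78D2 was at 33.2 and 49.9 RPKM, the acyltransferase gene SCPL10 at 19.2 and 29.1 RPKM, and the glucosidase family gene BGLU10 at 22.5 and 23.9 RPKM.

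Earlier steps showed smaller ratios. Of 6 early flavonoid genes, 3 were at least 2-fold higher, against 1.83% of all loci. None was lower, and the median log2 ratio was 1.06. CHS, chalcone synthase, which opens the flavonoid pathway, was at 50.6 RPKM in wild type against 198 in atprmt5, 3.92-fold (3.69 to 4.16) higher. The helper protein gene CHIL was at 73.8 and 172 RPKM, and the hydroxylase gene F3H at 27.1 and 63.9 RPKM. Short of 2-fold on the log scale used were CHI at 8.55 RPKM in wild type against 17 in atprmt5, F3'H at 3.6 and 6.89 RPKM, and FLS1, which draws intermediates to flavonols, at 7.24 and 12.2 RPKM. Upstream of them all, none of 6 general phenylpropanoid enzyme genes was 2-fold apart and their median was 0.14; C4H was at 79.7 RPKM in wild type against 78.6 in atprmt5. The 3 tested flavonol glycosyltransferase genes also stayed within 2-fold, at a median of 0.58, with UGT78D1 at 35.8 RPKM in wild type against 58.6 in atprmt5.

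Among the regulators, 2 of 4 tested activators of anthocyanin synthesis were at least 2-fold higher in atprmt5, against 1.83% of all loci. PAP1, the MYB factor of the complex, was at 1.39 RPKM in wild type against 7.02 in atprmt5, 5.06-fold (3.19 to 8.4) higher. TT8, its bHLH partner, was at 0.88 and 6.4 RPKM, 7.26-fold (4.89 to 11.2) higher in atprmt5. The second bHLH gene EGL3 was at 5.16 RPKM in wild type against 6.4 in atprmt5, and the WD40 gene TTG1 at 5.94 and 6.35 RPKM. GL3 was below the minimum at 0.702 and 0.666 RPKM, and the MYB genes PAP2, MYB113 and MYB114 were at 0 in both libraries. Of 6 repressors, 3 were at least 2-fold lower, against 3.42% of all loci, and the median log2 ratio was -0.70. MYBL2, a small MYB that blocks the complex, was at 47.2 RPKM in wild type against 20.1 in atprmt5, 2.34-fold (2.06 to 2.66) lower. LBD39 and LBD37, nitrogen-responsive repressors, were at 31.4 and 40.4 RPKM in wild type and at 13.6 and 19.6 RPKM in atprmt5. LBD38 was at 17.6 and 13.1 RPKM, SPL9 at 5.38 and 4.12 RPKM, and CPC at 4.86 and 4.17 RPKM. Neither flavonol MYB gene tested was 2-fold apart on the log scale used, and they went opposite ways: MYB12 was at 1.55 RPKM in wild type against 0.73 in atprmt5, and MYB111 at 1.81 and 3.97 RPKM. In the other lines DFR was at 14.9 RPKM in m90 and 1.18 RPKM in s215, and LDOX at 18 and 0.32 RPKM.

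**Figure D2:**
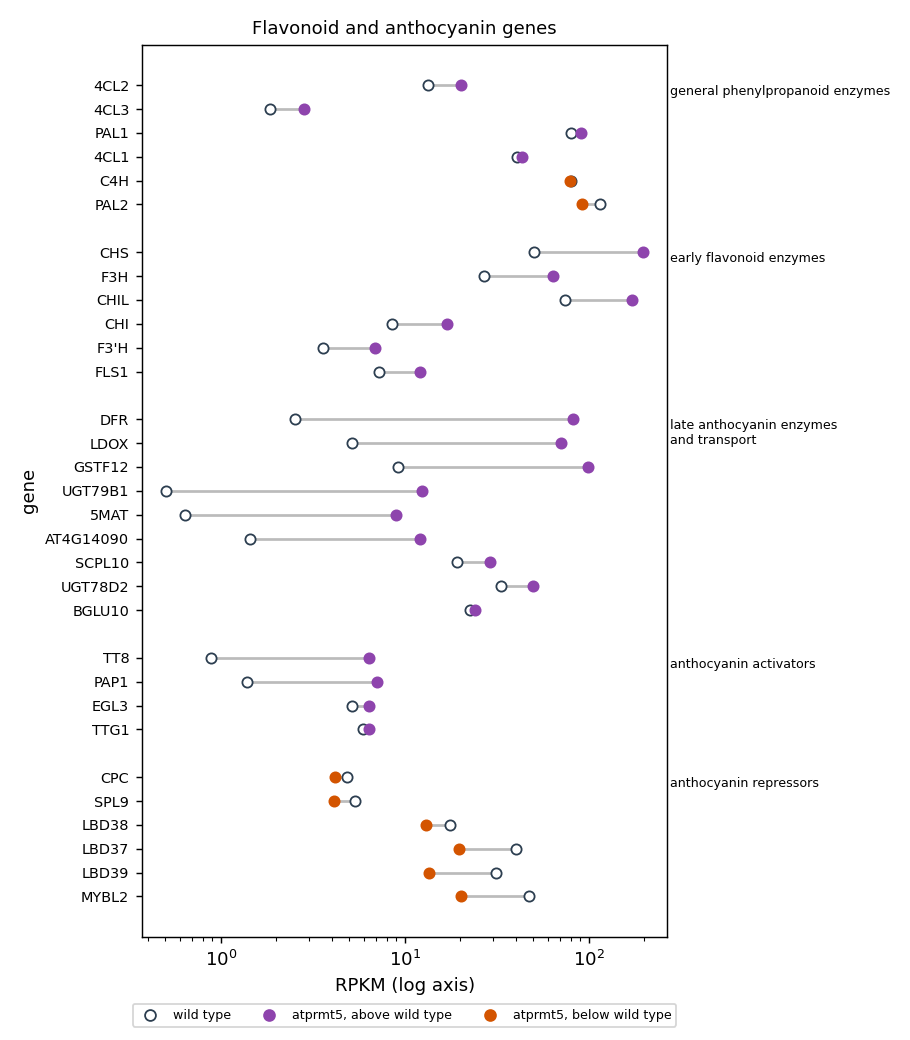
RPKM in wild type (open) and atprmt5 (filled, purple where above wild type and orange where below) for tested genes of 5 lists, on a log axis, 1 library each. The 6 late genes from DFR to AT4G14090 have the longest lines, the phenylpropanoid genes are all within 2-fold, and the 6 repressors all lie lower in atprmt5.

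Related enzyme families stood out as well. Of 11 tested phi glutathione transferases, 4 were at least 2-fold higher and none lower, against 1.83% of all loci, and the family's median log2 ratio was 0.91. Beside GSTF12 these were GSTF6, a stress-responsive member, at 6.25 RPKM in wild type against 42.2 in atprmt5, GSTF14 at 4.49 and 15.7 RPKM, and GSTF11 at 3.35 and 8.24 RPKM. Near-identical members of this family could share reads, and how such reads were counted is not given in the sources used here. Of 37 BAHD acyltransferases, 3 were higher and 1 lower. Beside 5MAT, the loci AT1G03940 and AT1G03495, named only as HXXXD-type acyltransferases in the reference, were at 0.584 and 0.23 RPKM in wild type and at 9.37 and 5.29 RPKM in atprmt5, which is 16-fold (9.76 to 29.8) and 23-fold (7.57 to 75.5) higher. PMAT2, a phenolic glucoside malonyltransferase gene, was on the lower side at 15.3 and 6.91 RPKM. The nudix hydrolase gene NUDT24 had the rank after LDOX among all loci on the log2(RPKM + 1) scale. It was at 3.96 RPKM in wild type against 53.1 in atprmt5, 13.4-fold (10.8 to 16.8) higher.

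Genes of iron uptake were higher in atprmt5. Of 11 tested genes for iron uptake and coumarins, 5 were at least 2-fold higher, against 1.83% of all loci. None was lower, and the median log2 ratio was 0.92. IRT1, the main ferrous iron transporter of the root surface, was at 1.44 RPKM in wild type against 12.2 in atprmt5, 8.51-fold (6.05 to 12.3) higher. FRO2, the reductase that supplies it with ferrous iron, was at 0.258 and 3.66 RPKM, 14.2-fold (7.57 to 28.5) higher in atprmt5. CYP82C4, which hydroxylates coumarins, was at 0.443 RPKM in wild type against 4.59 in atprmt5. The synthase genes for the metal chelator nicotianamine varied, with NAS2 at 2.81 and 19.4 RPKM, NAS4 at 4.08 and 11.9 RPKM and NAS1 at 58.5 and 78.1 RPKM. Among the remaining members, the proton pump gene AHA2 was at 159.6 RPKM in wild type against 188 in atprmt5, and the coumarin exporter gene PDR9 at 18 and 18.5 RPKM. Of 8 tested regulators of iron deficiency, 3 were at least 2-fold higher, against 1.83% of all loci. BHLH38 and BHLH39, partners of the factor FIT, were at 12.6 and 5.41 RPKM in wild type and at 32.9 and 16.7 RPKM in atprmt5, while MYB10 was at 0.259 and 2.59 RPKM. FIT itself was at 1.06 RPKM in wild type against 1.09 in atprmt5, BHLH100 at 9.96 and 14 RPKM, and BHLH101 at 14.3 and 14.9 RPKM. None of 6 tested iron storage genes was 2-fold apart: the ferritin gene FER1 was at 27 and 28.4 RPKM and the vacuolar transporter gene VTL5 at 25.7 and 16.4 RPKM. Of 11 tested zinc transporters of the family that includes IRT1, IRT1 was the one member at least 2-fold apart. In m90 and s215, IRT1 was at 4.62 and 0.0388 RPKM.

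Several families of the cell wall held members that were higher in atprmt5, at shares from 6.52% to 15.8% against 1.83% of all loci. Of 19 expansins, which loosen walls, 3 were at least 2-fold higher, with EXPA18 at 9.53 RPKM in wild type against 20.6 in atprmt5, EXPA7 at 1.95 and 4.98 RPKM and EXPA16 at 0.678 and 4.07 RPKM. Of 59 extensins and proline-rich wall proteins, 5 were higher and none lower: EXT4 was at 44 RPKM in wild type against 128 in atprmt5, and EXT6, EXT10, EXT12 and EXT13 were between 1.28 and 2.69 RPKM in wild type and between 4.48 and 7.61 RPKM in atprmt5. Of 42 pectin lyase-like proteins 5 were higher, with AT3G27400 at 11.9 and 47.4 RPKM and QRT2, a polygalacturonase gene, at 1.0 and 7.71 RPKM. Xyloglucan endotransglucosylases, which cut and rejoin wall xyloglucan, split: 4 of 26 were higher and 3 lower. XTH9 was at 61.7 RPKM in wild type against 151 in atprmt5, XTH4 at 64.4 and 141 RPKM and XTH31 at 26 and 64.4 RPKM, whereas the touch gene XTH22 was at 297 and 119.6 RPKM and XTH18 at 14.3 and 4.76 RPKM. Of 46 class III peroxidases 3 were higher, among them AT2G18150 at 15.2 and 49.5 RPKM and AT4G36430 at 12.5 and 38.2 RPKM, and of 46 GDSL lipases 3 were higher, among them AT1G54010 at 23.4 and 55.6 RPKM. The median log2 ratio was 0.50 in expansins, 0.19 in pectin lyase-like proteins and 0.17 in GDSL lipases. It was -0.02 in extensins and proline-rich wall proteins, -0.14 in xyloglucan endotransglucosylases and -0.10 in class III peroxidases. The latter families were thus not higher as a whole. Of 43 pectin methylesterases and inhibitors 1 was higher and 1 lower, and of 24 arabinogalactan proteins also 1 and 1. EXPA7 is a marker of root hairs. The other 2 root hair markers listed were LRX1, at 2.4 RPKM in wild type against 3.96 in atprmt5, and COBL9, at 0.67 and 1.53 RPKM, and the part of root hair number in these wall differences was not tested.

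Of 4 tested defence outputs of salicylic acid, 2 were higher in atprmt5 by at least 2-fold and none was lower. For this and the families that follow, the shares of all loci were 1.83% higher and 3.42% lower. PR1, the standard marker of that hormone, was at 1.21 RPKM in wild type against 13.1 in atprmt5, 10.8-fold (6.46 to 19.3) higher. PR5 was at 2.59 and 7.47 RPKM, PR2 was under the minimum at 0.554 and 0.403 RPKM, and WRKY70 was at 50.02 RPKM in wild type against 32.5 in atprmt5. Of 6 tested wall-associated kinases 2 were higher, WAK1 at 3.04 and 10.2 RPKM and WAK2 at 10.06 and 26.3 RPKM. Of 21 cysteine-rich receptor-like kinases 2 were higher, CRK40 at 4.36 and 12.3 RPKM and CRK16 at 0.219 and 2.78 RPKM. As a family these kinases were not higher, with a median log2 ratio of -0.16 and 12 of the 21 at a lower value in atprmt5. Receptor-like proteins gave 3 of 22 higher and 1 lower, and the higher ones included TMM, which patterns stomata, at 1.64 RPKM in wild type against 4.8 in atprmt5. Of 42 core histone genes 3 were higher and 1 lower, with AT1G09200 at 56.2 and 118 RPKM and AT5G65360 at 36.7 and 77.3 RPKM. Histone genes are near-identical copies, so reads could be split among them.

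On the log2(RPKM + 1) scale WRKY40 and RRTF1 had the lowest ratios of all loci, whereas by plain ratio some less abundant loci, such as JAZ7 and AT2G22880, lay lower. WRKY40, a transcription factor of defence and abscisic acid responses, was at 172 RPKM in wild type against 7.58 in atprmt5, 22.6-fold (19.3 to 26.7) lower. RRTF1, a redox-responsive ERF factor, was at 109.7 RPKM in wild type against 5.16 in atprmt5, 21.2-fold (17.8 to 25.6) lower. SZF1, a CCCH zinc finger protein of the salt and wounding response, was at 373 and 55 RPKM, 6.77-fold (6.47 to 7.1) lower. CML37, a calmodulin-like calcium sensor, was at 35 and 1.34 RPKM, 26.1-fold (16.5 to 43.8) lower. The 250 bases before these 4 genes are shown as examples, each at 35 RPKM or more in wild type and many-fold lower in the mutant. Other loci that met that description, such as AT3G02840 and BT1, are not shown. In TAIR10.1 they lie, on the plus strand, at chr1:30383311-30383560 for WRKY40, chr4:16451626-16451875 for RRTF1 and chr3:20775970-20776219 for SZF1, and, on the minus strand, at chr5:16943821-16944070 for CML37, with capitals marking the same motifs.
WRKY40: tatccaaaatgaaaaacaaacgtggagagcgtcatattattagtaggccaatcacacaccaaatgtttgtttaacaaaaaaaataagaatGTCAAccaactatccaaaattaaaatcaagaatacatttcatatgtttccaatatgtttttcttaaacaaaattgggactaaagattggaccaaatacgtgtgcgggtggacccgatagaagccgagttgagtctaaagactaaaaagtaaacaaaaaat
RRTF1: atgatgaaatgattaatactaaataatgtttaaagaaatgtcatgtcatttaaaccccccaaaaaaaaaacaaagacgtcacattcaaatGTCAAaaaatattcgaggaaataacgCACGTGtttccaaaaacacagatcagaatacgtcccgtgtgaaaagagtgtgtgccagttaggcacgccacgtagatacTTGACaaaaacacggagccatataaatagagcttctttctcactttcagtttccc
SZF1: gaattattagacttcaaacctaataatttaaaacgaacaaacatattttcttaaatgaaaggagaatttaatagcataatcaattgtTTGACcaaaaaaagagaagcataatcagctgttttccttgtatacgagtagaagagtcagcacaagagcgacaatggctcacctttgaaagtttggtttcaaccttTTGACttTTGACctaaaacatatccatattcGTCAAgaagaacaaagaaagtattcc
CML37: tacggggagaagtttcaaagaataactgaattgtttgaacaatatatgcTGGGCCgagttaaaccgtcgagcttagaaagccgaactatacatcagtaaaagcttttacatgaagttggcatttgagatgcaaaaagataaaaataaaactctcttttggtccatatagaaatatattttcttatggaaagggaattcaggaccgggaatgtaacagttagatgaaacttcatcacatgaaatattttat
The SZF1 stretch held 4 W-boxes, which began 163, 57, 50 and 26 bases before the start. The RRTF1 stretch held W-boxes at 160 and 55 bases and a G-box at 134, and the WRKY40 stretch a single W-box at 160. The CML37 stretch held a site II at 201 bases before the start and no letters of a W-box or G-box.

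Of 19 genes in a list of touch and rapid wounding responses, 15 were at least 2-fold lower in atprmt5 and none higher, against 3.42% of all loci, and the median log2 ratio was -1.87. Each of the 19 had a lower value in atprmt5 than in wild type. The list was chosen with earlier results of these data known, so its share is description and not a test. Beside RRTF1, CML37 and SZF1, MYB15, a factor of cold and lignin responses, was at 32.3 and 2.84 RPKM, 11.4-fold (8.95 to 14.7) lower. ACS6, a stress-induced synthase of the ethylene precursor, was at 161 RPKM in wild type against 24.4 in atprmt5, 6.59-fold (6.1 to 7.12) lower. The zinc finger gene ZAT12 was at 103 and 34.2 RPKM, and the ERF genes ERF6, ERF104 and ERF5 were at 86.5, 88.5 and 72.7 RPKM in wild type and at 15, 23.5 and 25.4 RPKM in atprmt5. The 4 members within 2-fold on the log scale used were SIB1 at 5.05 and 2.5 RPKM, CML24 at 301 and 178 RPKM, CML12 at 60.4 and 44.1 RPKM, and the kinase gene MPK3 at 58.4 and 46.3 RPKM. In m90, WRKY40 was at 469 RPKM, RRTF1 at 359 RPKM and CML37 at 180.3 RPKM, and in s215 they were at 57.3, 0.329 and 23.8 RPKM. The 4 libraries thus differed widely in these genes, and with 1 library a genotype the spread between wild-type seedlings was not measured.

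**Figure D3:**
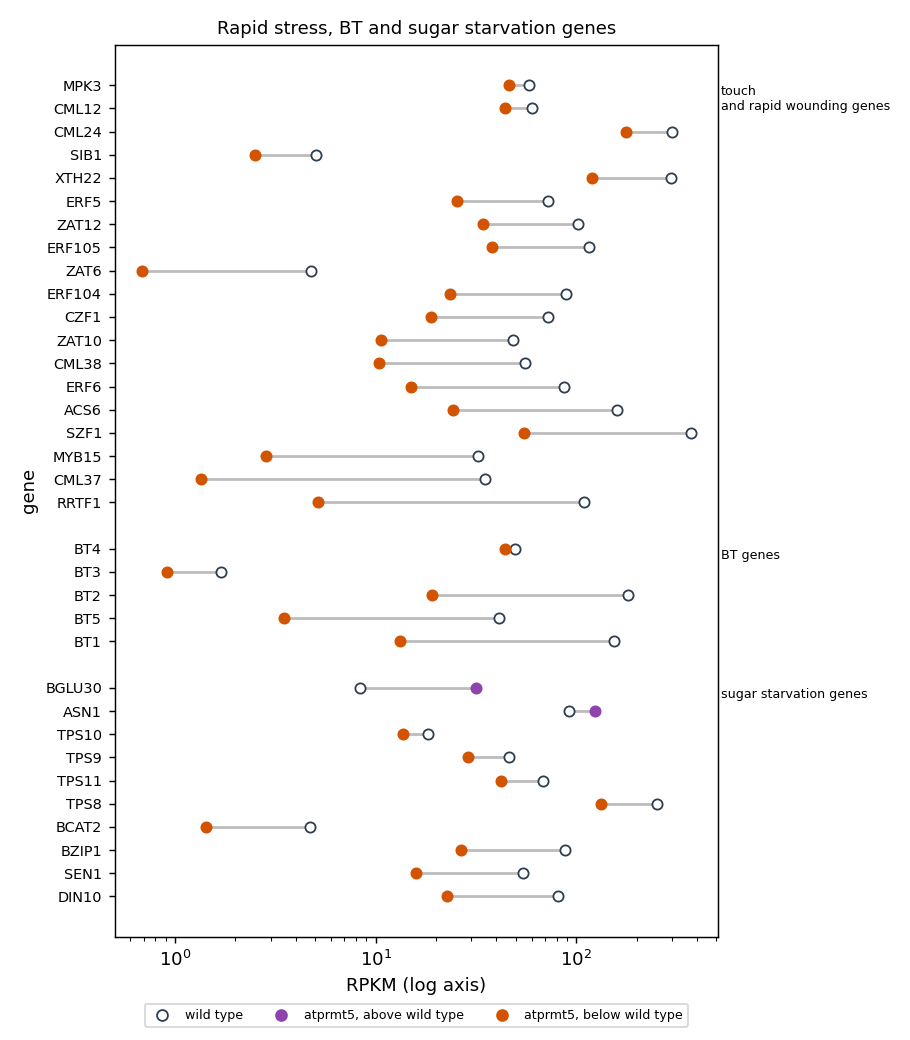
RPKM in wild type (open) and atprmt5 (filled, purple above and orange below wild type) for the tested genes of 3 lists, on a log axis, 1 library each. All 19 touch and rapid wounding genes lie lower in atprmt5, ordered from MPK3 to RRTF1 by log2 ratio, and BT1, BT2 and BT5 are each at least 9.51-fold lower.

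Families of such factors held many lower members. Of 41 ERF and DREB factors, 14 were at least 2-fold lower and none higher, and the family's median log2 ratio was -0.57. DREB2A, a factor of drought and heat responses, was at 37.4 RPKM in wild type against 6.02 in atprmt5, 6.21-fold (5.24 to 7.4) lower. ORA47, a jasmonate-responsive member, was at 40.6 and 3.16 RPKM, and ERF13 at 11.9 and 1.26 RPKM. The cold-response factor genes CBF1 and CBF2 were at 9.32 and 23.5 RPKM in wild type and at 2.01 and 8.51 RPKM in atprmt5, whereas CBF3 was at 2.25 and 1.42 RPKM. A grouping of AP2/ERF loci by their product name, which shares some of these loci, gave 9 of 41 lower and 1 higher. Of 52 WRKY factors 7 were lower and none higher, and the family's median of -0.01 lay at that of all loci. WRKY33, a factor of camalexin synthesis and resistance to fungi, was at 185 RPKM in wild type against 28.5 in atprmt5, 6.49-fold (6.07 to 6.95) lower. WRKY53, known from senescence, was at 17.2 and 2.31 RPKM, WRKY22 at 121 and 26 RPKM, and WRKY45 at 13.9 and 2.38 RPKM. Of 9 ZAT and AZF zinc finger factors 4 were lower, with ZAT10 at 48.3 RPKM in wild type against 10.7 in atprmt5. Of 17 heat shock factors 5 were lower, among them HSFB2A at 27.1 and 8.73 RPKM and HSFC1 at 31.9 and 13.9 RPKM. Of 17 heat shock proteins 3 were lower, with HSP90.1 at 74.3 and 34.9 RPKM, and of 30 small heat shock proteins 1 was lower.

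Signalling families were uneven, against 3.42% of all loci lower. Of 55 calmodulin-like and EF-hand proteins, 6 were at least 2-fold lower and 1 higher, and the median log2 ratio was -0.04. CML38 was at 55.3 RPKM in wild type against 10.4 in atprmt5, and the EF-hand locus AT4G27280 at 132 and 47.1 RPKM. Of 25 calcium-dependent kinases none was 2-fold apart. Of 21 U-box ubiquitin ligases 5 were lower, led by PUB22 at 68.8 and 13.5 RPKM and PUB23 at 62.7 and 13.8 RPKM, a pair that dampens immune signalling. Of 12 ATL ligases 2 were lower: CNI1, a regulator of the carbon and nitrogen balance, was at 27.2 RPKM in wild type against 6.9 in atprmt5, and ATL2 at 30.4 and 12.1 RPKM. Of 15 VQ motif proteins, cofactors of WRKY factors, 3 were lower, with AT2G22880 at 13.3 and 0.486 RPKM. Of 5 PROPEP precursors of defence peptides 2 were lower. PROPEP3 was at 8.89 RPKM in wild type and had no read in atprmt5, which makes it at least 12.9-fold lower at a floor of 3 reads in that library, and PROPEP1 was at 2.5 and 0.682 RPKM. Glycine-rich proteins gave 6 of 40 lower and 3 higher, and the lower ones included AT2G05510 at 48.9 and 2.53 RPKM and AT2G05540 at 115 and 11.2 RPKM.

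Of 10 JAZ repressors, which hold back jasmonate-responsive factors, 4 were at least 2-fold lower and none higher, with a median log2 ratio of -0.63. JAZ1 was at 55.3 RPKM in wild type against 16.1 in atprmt5, 3.44-fold (3.09 to 3.83) lower, JAZ5 at 16 and 2.07 RPKM, and JAZ7 at 10.2 and 0.348 RPKM. JAZ8 was at 2.52 RPKM in wild type and had no read in atprmt5. MYC2, the bHLH factor that JAZ proteins bind, was at 178 RPKM in wild type against 38.6 in atprmt5, 4.62-fold (4.37 to 4.89) lower. In jasmonate synthesis 2 of 6 genes were at least 2-fold higher and none lower, and 3 of the 6 had a lower value in atprmt5. The lipoxygenase gene LOX2 was at 61 RPKM in wild type against 132 in atprmt5, 2.17-fold (2.08 to 2.27) higher, and the cyclase gene AOC1 was at 4.04 and 13.3 RPKM, while AOS was at 74.4 and 74.2 RPKM, OPR3 at 79.8 and 60.5 RPKM, and AOC3 at 10.9 and 5.42 RPKM. The storage protein gene VSP1, an output of the hormone, was at 12.8 and 3.92 RPKM, and VSP2 at 269 and 161 RPKM.

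BT genes, which encode BTB and TAZ domain scaffolds tied to nitrogen, sugar and light responses, were among the lowest. Of 5 members 3 were at least 2-fold lower and the median log2 ratio was -3.18. BT2 was at 182 RPKM in wild type against 19.1 in atprmt5, 9.51-fold (8.67 to 10.5) lower. BT1 was at 154 and 13.2 RPKM and BT5 at 41.4 and 3.5 RPKM, and BT4 was at 49.6 RPKM in wild type against 44 in atprmt5. Of 10 genes that sugar starvation is known to raise, 4 were lower and 1 higher. DIN10, a raffinose synthase-like gene, was at 80.9 RPKM in wild type against 22.6 in atprmt5, 3.57-fold (3.35 to 3.81) lower. The senescence gene SEN1 was at 54.4 and 16 RPKM and the factor gene BZIP1 at 87.7 and 26.5 RPKM. The list was not uniform: BGLU30, also a dark-induced gene, was at 8.34 RPKM in wild type against 31.6 in atprmt5, 3.78-fold (3.32 to 4.33) higher, and ASN1 was at 91.7 and 124 RPKM. The proline dehydrogenase gene ERD5 was at 4.5 and 17.7 RPKM, and AT5G38710, the other proline dehydrogenase locus listed, lay the other way at 2.5 and 0.77 RPKM. The nitrate reductase gene NIA1 was at 174 RPKM in wild type against 68.1 in atprmt5, 2.56-fold (2.46 to 2.66) lower, and NIA2 was at 414 and 270.0 RPKM. The nitrate transporter gene NRT2.1 was at 0.334 and 1.93 RPKM. None of 4 tested phosphate starvation genes was 2-fold apart, with SPX1 at 45.5 and 30.7 RPKM.

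Members of auxin, cytokinin and water channel families were at least 2-fold lower more often than the 3.42% of all loci, a share that such small families can pass with few members. Of 48 SAUR proteins, small auxin-induced growth regulators, 6 were at least 2-fold lower, with SAUR29 at 24.9 RPKM in wild type against 11.3 in atprmt5 and AT3G09870 at 10.8 and 1.66 RPKM. Of 27 Aux/IAA repressors 3 were lower, with IAA1 at 23.8 and 10.5 RPKM and IAA6 at 6.07 and 1.84 RPKM, and of 8 GH3 enzymes none was apart. Of 13 response regulators of cytokinin signalling 2 were lower: ARR7 was at 12.5 RPKM in wild type against 5.16 in atprmt5, and RR5 at 23.7 and 11 RPKM. Of 36 aquaporins 4 were lower. PIP1;5, a plasma membrane water channel, was at 99.1 RPKM in wild type against 39.9 in atprmt5, and TIP2;3 at 10.9 and 4.68 RPKM. The sugar transporter genes SWEET1 and SWEET16 went opposite ways, SWEET1 at 1.66 RPKM in wild type against 7.42 in atprmt5, and SWEET16 at 3.58 and 1.15 RPKM.

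Transcripts known from seeds were present in these seedlings, and the tested genes of seed storage and maturation were lower in atprmt5. Of 6 such genes 3 were at least 2-fold lower, none was higher, and the median log2 ratio was -1.03. Below the minimum were 7 further members. Of these, SESA1 at 0.41 and 1.51 RPKM and SESA4 at 0 and 0.162 RPKM were higher in atprmt5, and the others were lower. CRC, a cruciferin storage protein, was at 89.3 RPKM in wild type, 14.4 RPKM in atprmt5 and 0 in m90. CRA1, a second cruciferin, was at 67.8 RPKM in wild type against 19.2 in atprmt5, and the seed aquaporin gene TIP3;1 at 13.6 and 5.58 RPKM. The oil body protein genes OLEO1 and OLEO2 were at 6.03 and 8.66 RPKM in wild type and at 4.06 and 4.29 RPKM in atprmt5. Of 24 late embryogenesis proteins 5 were lower and 1 higher, with LEA7 at 51.4 and 17.6 RPKM and AT3G17520 at 56.4 and 25.6 RPKM. Of 12 tested cold and drought genes 3 were lower, CBF1 and CBF2 given above and the dehydrin gene RAB18 at 201 RPKM in wild type against 82.8 in atprmt5, whereas RD29A was at 62.4 and 91.2 RPKM and COR15A at 96.6 and 122 RPKM. Of 7 clade A phosphatases of abscisic acid signalling 1 was lower, HAI2, at 32.1 and 15.2 RPKM.

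Of 20 clock genes 2 were at least 2-fold higher and 1 lower, with a median log2 ratio of -0.31. LHY, a morning factor, was at 6.07 RPKM in wild type against 27.5 in atprmt5, 4.53-fold (4.02 to 5.1) higher, while its near partner CCA1 was at 145 and 130.3 RPKM. RVE8, a related activator, was at 3.68 RPKM in wild type against 10.5 in atprmt5, 2.85-fold (2.23 to 3.65) higher. RVE1, which links the clock to auxin, was at 37.1 and 14.5 RPKM, 2.56-fold (2.3 to 2.86) lower. The evening genes TOC1, GI and ELF4 were at 20.6, 9.48 and 3.12 RPKM in wild type and at 14.4, 8.64 and 1.71 RPKM in atprmt5. Of the 20 clock genes, 16 had a lower value in atprmt5 and 4 a higher one, so most but not all lay on the lower side. The part of clock phase in the other gene groups was not tested. In m90, LHY was at 24.9 RPKM and RVE8 at 11.5 RPKM, and in s215 they were at 147.9 and 18.2 RPKM.

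Several large families had few members 2-fold apart. Of 309 ribosomal protein genes 1 was higher and 1 lower, of 200 pentatricopeptide proteins none was 2-fold apart, and none of 21 light harvesting proteins or 9 MCM helicases was. Among genes of the splicing machinery, which holds known substrates of PRMT5, 1 of 30 SR factors was higher and none of 16 LSm and Sm proteins was 2-fold apart. These values are RNA levels for a whole locus and do not show splicing. Families with members on both sides, above the shares of all loci, included the bHLH factors, of which 6 of 91 were higher and 4 lower: beside TT8, BHLH38 and MYC2, the locus AT4G28790 was at 2.87 RPKM in wild type against 17.8 in atprmt5. Of 32 beta glucosidases 3 were higher and 2 lower, with BGLU1 at 7.17 and 17.3 RPKM and BGLU19 at 12.7 and 2.69 RPKM. Of 151 cytochromes P450 3 were higher and 7 lower. These shares, 1.99% and 4.64%, lay near the 1.83% and 3.42% of all loci. The higher ones included the unnamed locus AT3G44970 at 2.59 RPKM in wild type against 26.5 in atprmt5. Aliphatic glucosinolate genes had no member 2-fold apart, yet all 10 had a higher value in atprmt5, from a log2 ratio of 0.04 to 0.76, with the chain-elongation gene MAM1 at 273 RPKM in wild type against 463 in atprmt5. The 7 indole glucosinolate genes and the 5 genes of triterpene clusters were also within 2-fold, at medians of -0.23 and -0.21.

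**Figure D4:**
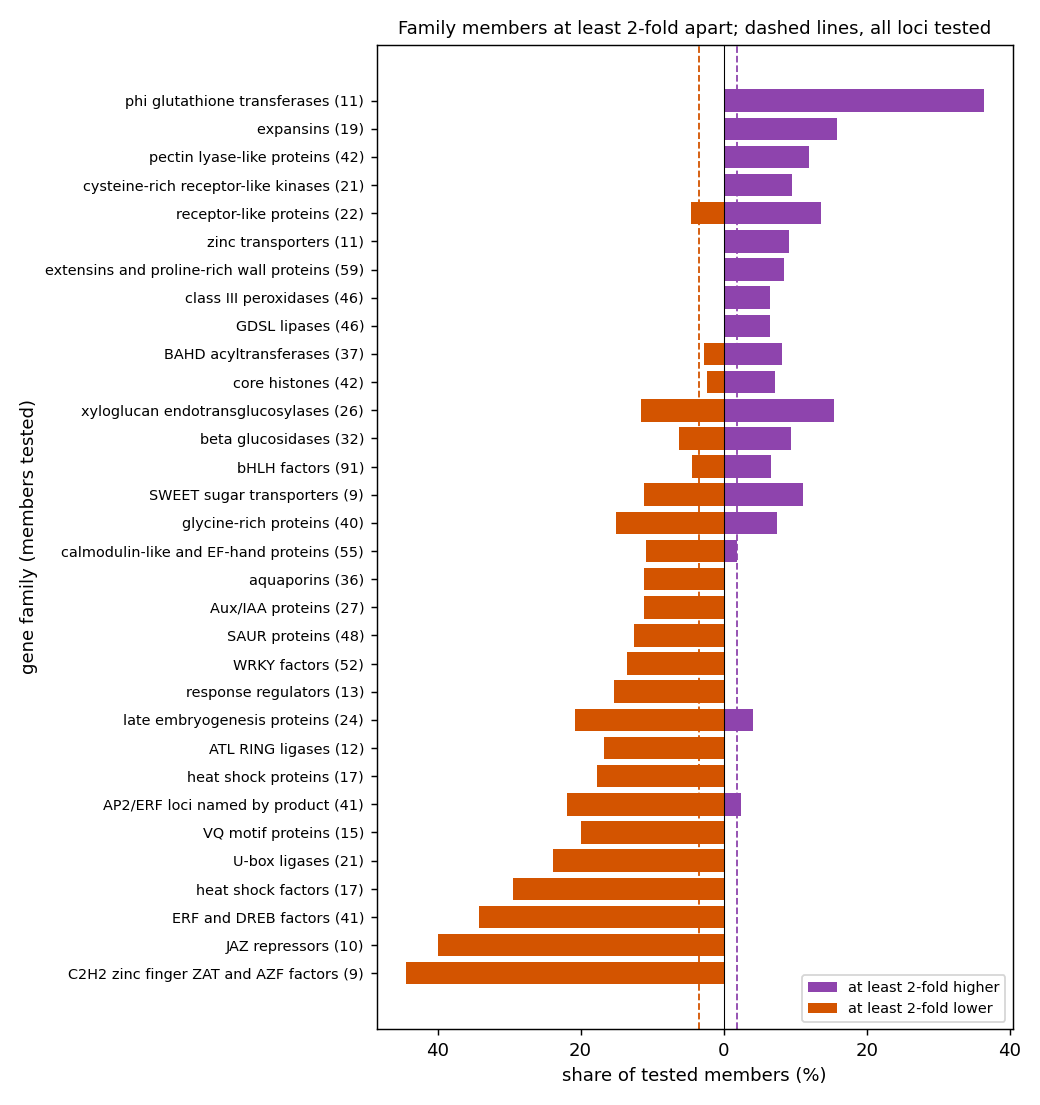
Share of tested members of each family at least 2-fold higher (purple, to the right) or lower (orange, to the left) in atprmt5, for families with 9 or more tested members and a share of at least 3 times that of all loci in one direction; the dashed lines mark the 1.83% and 3.42% of all loci. Phi glutathione transferases reach furthest right, with 4 of 11, and ZAT and AZF factors and JAZ repressors furthest left, with 4 of 9 and 4 of 10.

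The loci lower in atprmt5 shared features of gene structure that the choice of loci did not use. Their genes had a median of 2 exons, against 4 in the loci higher in atprmt5 and 5 in all loci compared, and 37.2% had a single exon, against 23.6% and 13.7%. Their median exonic length was 1321 bases, against 1538 for the higher loci and 1783 for all. GC content of the exons was alike, at 40.1%, 40.7% and 41.2%. Noncoding RNA genes made up 3.62% of the lower loci, 4.12% of the higher loci and 1.22% of all. Genome neighbours lay on the same side in 16 runs of higher loci, which held 32 loci and were never longer than 2, and in 39 runs of lower loci, which held 81. These counts were not compared with the number that the shares of all loci would give, so clustering was not tested. Outside the protein-coding genes, AT2G01010, an 18S ribosomal RNA locus, was at 31.8 RPKM in wild type against 281 in atprmt5, a repeated sequence for which the treatment of reads with several matches is not given in the sources used here.

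Letters of known promoter motifs were counted in the 250 bases before each gene start, on both strands, for 339 higher, 634 lower and 18481 compared loci. The W-box TTGAC was present in 52.7% of promoters of lower loci, 46.9% of higher loci and 44.7% of all. In the touch and rapid wounding list it was in 10 of 19 promoters, or 52.6%. The GCC box GCCGCC, a letter run bound by ERF factors, was in 3.63%, 1.18% and 1.94%, and the rapid stress element CGCGTT in 5.21%, 2.36% and 2.79%. Both runs were thus more frequent before lower loci than before higher ones. The G-box CACGTG was in 10.6% of lower, 9.44% of higher and 7.59% of all promoters, and the drought element core CCGAC in 12.3%, 10.03% and 13.1%. Site II, TGGGCC, known from genes of growing cells, was in 7.26% of lower, 10.9% of higher and 17.1% of all promoters, and the telo-box core AACCCTA in 2.37%, 3.83% and 5.25%. The evening element core AATATCT was in 12.1%, 10.3% and 10.04%. These shares were not tested, and promoters of gene families are not independent of each other.

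**Figure D5:**
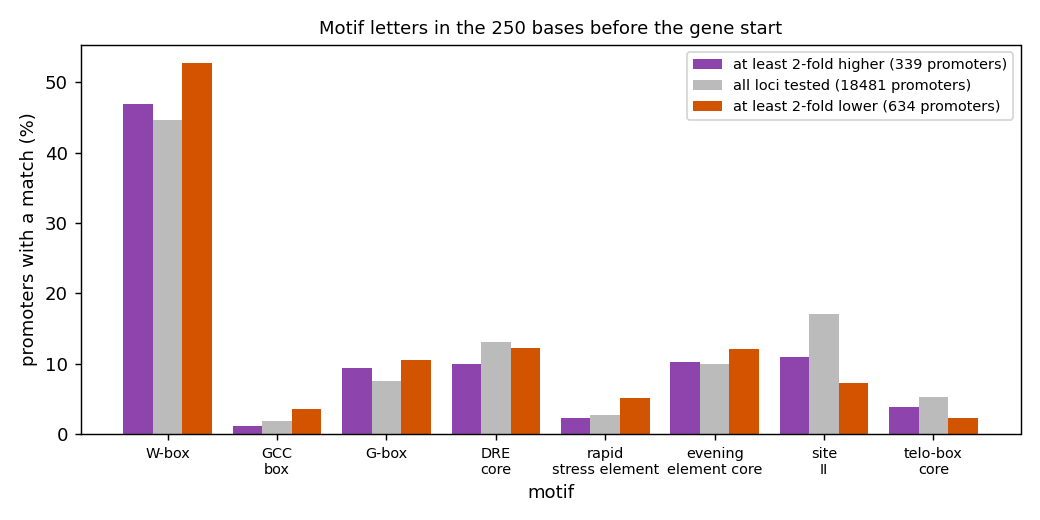
Share of promoters (250 bases before the gene start, both strands) that hold each motif's letters, for loci at least 2-fold higher in atprmt5 (purple), all loci compared (grey) and loci at least 2-fold lower (orange). The W-box bar is highest for the lower loci, at 52.7%, and the site II bar lowest for them, at 7.26%.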

How the data were processed

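Whole seedlings were measured by RNA-seq, 1 library a genotype, so no test was possible. Trizol extraction and a strand-specific SMART library method are given per the labels' protocols, and TopHat2 2.0.11 and build TAIR10 per the submitters' processing notes. The authors deposited RPKM in 1 table of 24288 loci. Which program counted reads, whether it used strand, and how it treated multiple matches is not given in the sources used here.

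Differences were computed as log2((RPKM + 1)/(RPKM + 1)) where the mean over both libraries reached 1 RPKM, and counted at 2-fold. Reads were recovered for all 18560 loci with the shortest length between 20 and 17000 at which the 4 values were whole bases of 100-base reads within 0.001. For 1829 loci this length was under 50% of the annotated one, so reads are understated there. Genes, products, exons and the 250 bases before each start came from the RefSeq annotation of TAIR10.1, which lacked 78 of the tested loci. The 27 lists (221 loci) and 74 families (found by symbol or product) were chosen with earlier results of these data known, and several family patterns were corrected after values were seen.

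Named genes were the 20 highest and 20 lowest loci as a pool, up to 4 members past 2-fold in each direction of a list or family, the most abundant member where there was none, and loci beside the 2-fold line; some further list members are given for comparison and were chosen after their values were seen. Families were described where at least 5 members were tested and their share was at least 3 times that of all loci. Alternatives were other pseudocounts, minimum levels, centring and rescaling. The scripts used Python 3.11.15, pandas 2.3.3 and scipy 1.17.1, and the counting was tested on simulated data.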

Additional observations from a re-analysis of the deposited data

Results flagged for a closer look

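In lines outside the comparison, 3 of its most different genes stood far above both libraries. PR1 was at 4144 RPKM in s215, compared with 1.21 RPKM in wild type against 13.1 in atprmt5. CML37 was at 180.3 RPKM in m90, compared with 35.0 RPKM in wild type against 1.34 in atprmt5. GSTF6 was at 200.5 RPKM in s215, compared with 6.25 RPKM in wild type against 42.2 in atprmt5.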

How the results depend on the processing

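The counts of loci at least 2-fold apart depended on how low levels were treated. Against 340 higher and 635 lower loci as reported, a pseudocount of 0.1 gave 594 and 951, and a pseudocount of 5 gave 86 and 282. No minimum level gave 364 and 667, and a minimum mean of 5 RPKM, which left 13261 loci, gave 194 and 424. Centring on the median gave 343 and 632, and rescaling by a trimmed mean gave 347 and 631. The share of higher loci among all those apart was 34.9% as reported and 23.4% at a pseudocount of 5. The counts of lists and families moved too: of 202, 73 differed from the reported count by more than 1.5 times at a pseudocount of 5, 53 at 0.1 and 44 at a minimum mean of 5 RPKM, and at most 3 under each of the other alternatives. Of 416 named loci, none reversed where it had a value, which 301 had at a minimum mean of 5 RPKM; 151 no longer reached 2-fold at a pseudocount of 5, and 1 no longer did so after rescaling. No paired analysis was possible because each genotype had 1 library and the labels carry no replicate numbers. Depth limits the low loci most. Without replicates, variation between seedlings is not in any interval.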

Other observations

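Several of the 20 highest and 20 lowest loci are not described above. On the higher side, AT1G77960, annotated as a repressor ROX1-like protein, was at 2.08 RPKM in wild type against 18.4 in atprmt5. PYD4, named for pyrimidine breakdown, was at 3.14 and 21.3 RPKM, the lipid transfer-like locus AT4G12490 at 0.66 and 7.96 RPKM, the ChaC-like locus AT5G26220 at 0.928 and 8.67 RPKM, and the uncharacterized locus AT2G16586 at 6.21 and 47.7 RPKM. On the lower side, AT4G29780, annotated as a nuclease, was at 256 RPKM in wild type against 29.3 in atprmt5. AT3G02840, an ARM repeat protein, was at 51.5 and 2.01 RPKM, the copper-binding protein gene BCB at 41.0 and 3.70 RPKM, the MATE efflux locus AT5G52050 at 34.0 and 3.70 RPKM, AT5G45630, a protein with the domain of senescence regulators, at 41.5 and 3.69 RPKM, AT1G19210, an AP2/ERF locus, at 10.09 and 0.429 RPKM, and BPS3, a BPS1-like gene, at 18.1 and 1.62 RPKM.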
